A study of Homo sapiens with 10 samples.

Results

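Binding of the coactivator MAML3 and of RARα, a receptor for retinoic acid, was examined at 6 axon guidance genes, SLIT3, SLIT2, ROBO1, ROBO2, PLXNA2 and PLXNA4, in the human neuroblastoma line SK-N-SH. MAML3 belongs to the mastermind family, whose members activate transcription without binding DNA themselves. RARα is a DNA-binding nuclear receptor whose ligand is retinoic acid. Chromatin immunoprecipitation and sequencing (ChIP-seq) was done on cells treated with 1 µM retinoic acid (RA) and on cells given vehicle (untreated, UT), all kept for the preceding 24 hours in charcoal-stripped serum. Each antibody was used on 2 libraries per treatment, which gave 8 peak lists: 4 for MAML3 (RA 1, RA 2, UT 1, UT 2) and 4 for RARα. All libraries came from the same cell line, described in the labels as control cells, and the labels do not say whether replicates were separate cultures.

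Each gene was represented by a fixed window on the hg19 build, and all peaks of the 8 lists that touched a window were taken. The windows were chr5:168080000-168780000 for SLIT3, chr4:20200000-20670000 for SLIT2, chr3:78600000-79870000 for ROBO1, chr3:75900000-77750000 for ROBO2, chr1:208150000-208470000 for PLXNA2 and chr7:131760000-132380000 for PLXNA4. Together they covered 5230 kb, or 0.181% of the listed range of the autosomes and X, and held 183 of the 26482 peaks of the 8 lists. The 6 genes were chosen from these peak lists with their peaks known. Peak numbers in the windows are therefore given as a description, with no test. With 2 libraries against 2, an exact two-sided permutation test cannot give a p below 0.33.

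SLIT proteins are secreted ligands that bind ROBO receptors on growing axons and migrating cells, mostly as a repulsive cue. Plexin-A proteins are receptors for semaphorins, another family of guidance cues, and often act with neuropilins. Both systems shape the paths of neurons and neural crest cells, the lineage from which sympathetic neurons and neuroblastoma arise. SLIT3 and SLIT2 are ligands, ROBO1 and ROBO2 are their receptors, and PLXNA2 and PLXNA4 are semaphorin receptors. In RefSeq's table for GRCh38.p14 no other protein-coding gene overlaps any of the 6. The flanking protein-coding genes there are PANK3 and SPDL1 for SLIT3, LCORL and PACRGL for SLIT2, CD34 and CAMK1G for PLXNA2, and PODXL and CHCHD3 for PLXNA4. ROBO2 and ROBO1 are next to each other, with ZNF717 and GBE1 on the outer sides. A peak in a window was not linked to a gene's activity by any measurement here.

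The 2 ligand genes share a microRNA, whose sequences are shown because they tie the window with the most MAML3 sites to one of the sparsest. Hairpins of miR-218 lie within SLIT3 (MIR218-2) and within SLIT2 (MIR218-1), on the strand of the host gene, in the same RefSeq tables. The mature 5p arm is identical at both genes, and the 3p arms differ in their seed (bases 2 to 8, in capitals, RefSeq, GRCh38.p14):
hsa-miR-218-5p (both genes): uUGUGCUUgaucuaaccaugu
hsa-miR-218-2-3p (SLIT3): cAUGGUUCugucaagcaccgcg
hsa-miR-218-1-3p (SLIT2): aUGGUUCCgucaagcaccaugg

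The 250 bases upstream of the gene starts of SLIT3, SLIT2 and PLXNA2 are printed because these genes had, in that order, the most MAML3 sites, very few sites, and the most RARα peaks per 100 kb. They come from RefSeq (GRCh38.p14), at chr5:169301140-169301389 on the minus strand, chr4:20251655-20251904 on the plus strand and chr1:208244385-208244634 on the minus strand. Peak positions are on another build, so no peak was placed on these stretches. Capitals mark matches on either strand to AGGTCA, the half-site that retinoic acid receptors bind, or to TGGGAA, the core of the site bound by RBPJ, the DNA-binding partner of mastermind proteins in Notch signalling:
SLIT3: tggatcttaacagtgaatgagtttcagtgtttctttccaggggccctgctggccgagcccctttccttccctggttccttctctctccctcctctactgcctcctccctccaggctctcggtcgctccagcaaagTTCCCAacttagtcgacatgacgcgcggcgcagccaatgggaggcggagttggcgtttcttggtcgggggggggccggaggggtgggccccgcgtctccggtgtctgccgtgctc
SLIT2: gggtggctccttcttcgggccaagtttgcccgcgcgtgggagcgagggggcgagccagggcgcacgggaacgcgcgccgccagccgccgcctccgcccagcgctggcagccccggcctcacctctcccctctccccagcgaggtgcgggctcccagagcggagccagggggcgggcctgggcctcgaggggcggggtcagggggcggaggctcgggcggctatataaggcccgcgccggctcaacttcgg
PLXNA2: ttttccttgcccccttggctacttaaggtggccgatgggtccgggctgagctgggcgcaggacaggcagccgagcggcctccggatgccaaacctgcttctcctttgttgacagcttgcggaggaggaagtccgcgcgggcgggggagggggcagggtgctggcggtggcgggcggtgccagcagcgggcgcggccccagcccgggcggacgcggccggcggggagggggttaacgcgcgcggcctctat

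The 6 genes have 8 such promoters in the table, with a pair each for ROBO1 and ROBO2. TGGGAA was found in 1 of the 8, that of SLIT3, and AGGTCA in 0 of the 8. Other forms of the half-site were not searched for, so their absence is not shown. Over all 35116 promoters of the table the shares were 20.8% for TGGGAA and 12.1% for AGGTCA. The motifs share no overlapping match here. A match is a description of letters and not a measured site.

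List lengths frame every count. The MAML3 lists held 7532 and 6230 peaks in RA cells and 2222 and 6759 in UT cells. The RARα lists held 1103 and 1064 peaks in RA cells and 1321 and 251 in UT cells. No source used here gives the read depth, so absence from a list does not show that a place was unbound, least of all for the short lists UT 1 (MAML3) and UT 2 (RARα). By the lane tags in the list names, MAML3 RA 1 and UT 2 carry lane number 3, and RA 2 and UT 1 carry lane number 7. A lane number by itself does not show that lists came from the same sequencing run. The UT 1 and UT 2 lists of MAML3 carry the same index tag and may be the same library sequenced again, which no label states. The list name of RARα UT 2 has a tag reading merged and no lane tag, and no label explains it, so whether UT 2 is a replicate of its own is not known for RARα. Scores were used only as a percentile within each list, where a higher value is nearer to that list's highest score.

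The windows differed widely in MAML3. SLIT3 carried a dense series of peaks in all 4 lists, and PLXNA2 and PLXNA4 carried fewer. ROBO2 had scattered peaks, mostly of lower rank in the RA lists, and SLIT2 and ROBO1 had peaks in RA lists alone. Over the 6 windows the lists held 54 and 42 MAML3 peaks in RA cells and 20 and 38 in UT cells. The means were 48 ± 8.49 in RA cells and 29 ± 12.7 in UT cells (SD, n = 2 each), and the RA values did not overlap the UT values. The gap between RA 2 (42) and UT 2 (38) was smaller than the spread within either treatment. Within lane 3 the counts were 54 in RA 1 and 38 in UT 2, and within lane 7 they were 42 in RA 2 and 20 in UT 1. RA was thus higher in both lanes, and so was the length of the RA list. If UT 1 and UT 2 are the same library, the lanes are not independent comparisons. By gene, SLIT3 had 21 in RA 1 and 19 in UT 2 within lane 3, and 18 in RA 2 and 12 in UT 1 within lane 7. PLXNA4 had 9 in RA 1 and 8 in UT 2, and 7 in RA 2 and 3 in UT 1. As a share of the list, the windows held 0.717% and 0.674% of the peaks in the RA lists, against 0.900% in UT 1 and 0.562% in UT 2, so on this scale the RA lists lay between the UT lists, with RA higher in lane 3 and lower in lane 7.

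Per 100 kb, the 6 windows together held 1.03 and 0.803 MAML3 peaks in the RA lists and 0.382 and 0.727 in the UT lists. Over the listed range of the autosomes and X the same lists held 0.260 and 0.216 peaks per 100 kb for RA, and 0.0767 and 0.234 for UT. The windows were thus 3.96 and 3.73 times as dense as the listed range in the RA lists, and 4.98 and 3.11 times in the UT lists. The genes were chosen for their peaks, so nothing is read from this excess. Of the MAML3 peaks in the windows, SLIT3, PLXNA2 and PLXNA4 held 36 and 31 in the RA lists and 20 and 32 in the UT lists, over 1640 kb. SLIT2, ROBO1 and ROBO2 held 18 and 11 in the RA lists and 0 and 6 in the UT lists, over 3590 kb.

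**Figure D1:**
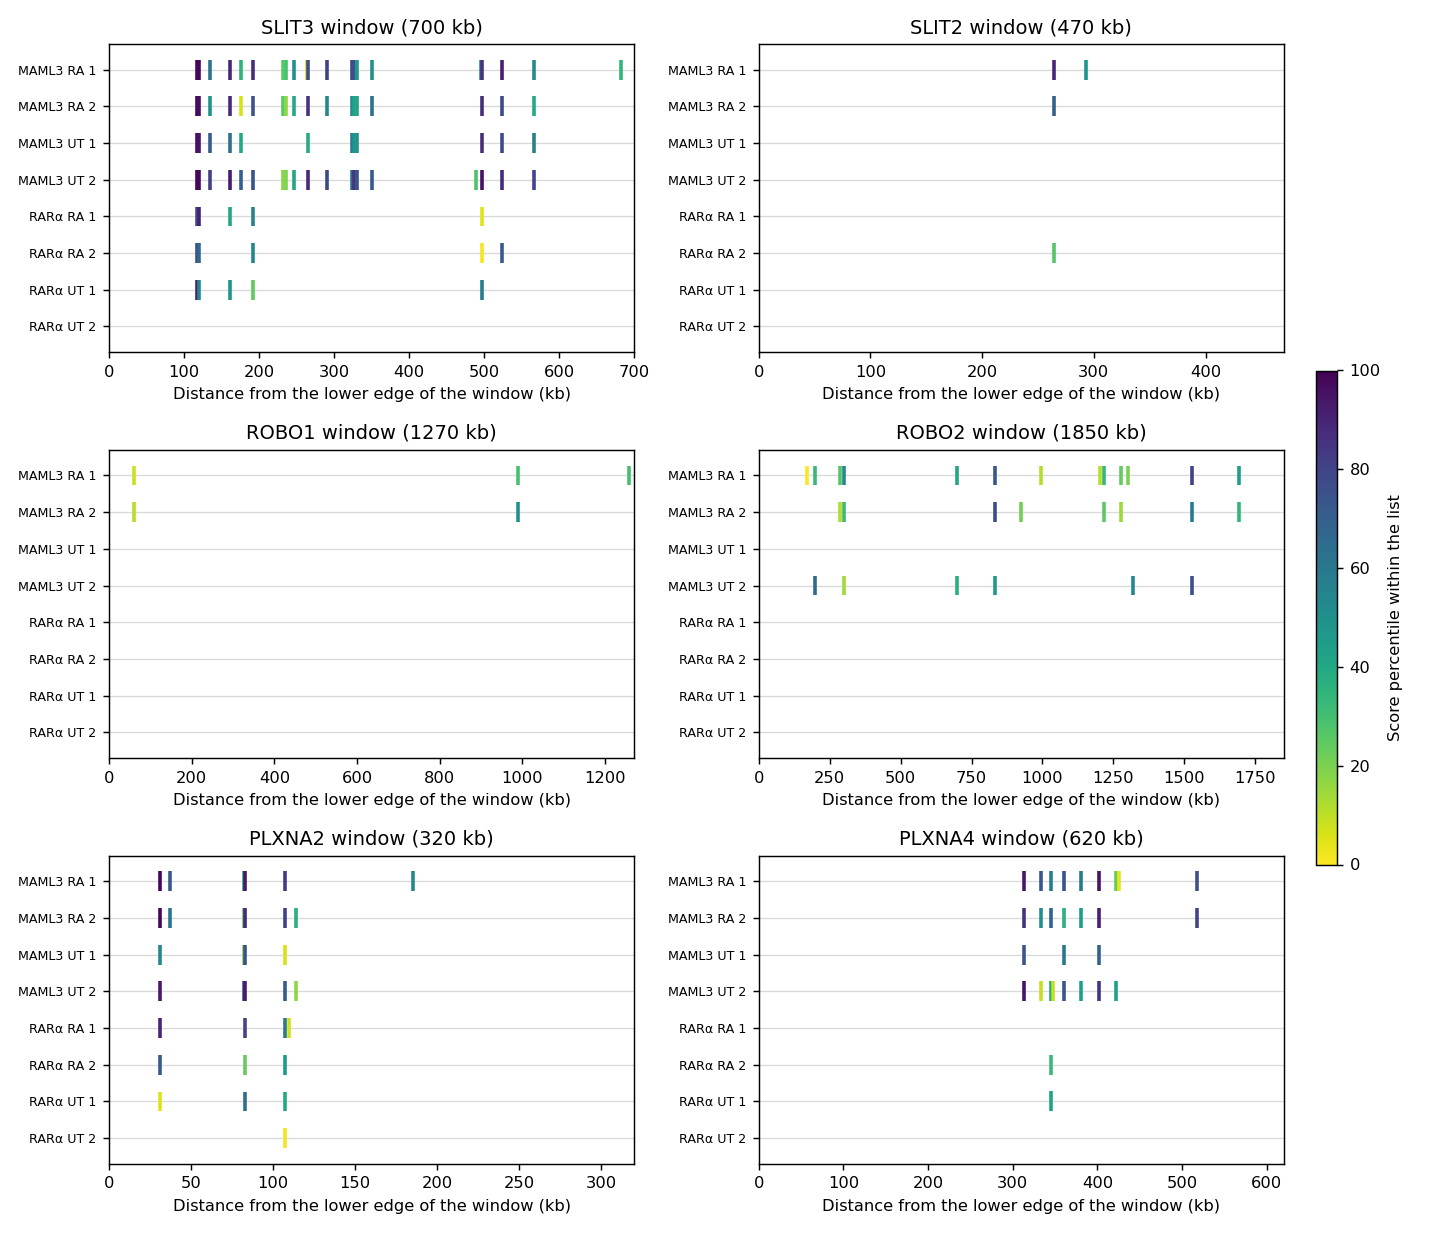
Peaks of the 8 lists along each window, with distance from the window's lower edge in kb on the x axis and 1 row per library, RA rows above UT rows for each antibody. Each tick is a merged site, drawn at the site's midpoint in every list that holds it and coloured by its score percentile there. Ticks of an antibody's lists therefore line up by construction. The SLIT3 window has 22 MAML3 sites, and the ROBO1 and ROBO2 windows have no RARα tick.

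Among the ligands, SLIT3 was the most densely occupied gene. Its window of 700 kb held 21 and 18 MAML3 peaks in the RA lists and 12 and 19 in the UT lists. UT 1, the short list, was the lowest, and UT 2 lay between the RA libraries. This is 2.79 ± 0.303 peaks per 100 kb in RA cells and 2.21 ± 0.707 in UT cells (SD, n = 2 each), a difference smaller than the spread between the UT libraries. Merging peaks that overlapped by at least 1 bp gave 22 MAML3 sites. Of these, 12 were in all 4 lists (54.5%), beside 16.8% of all 10251 MAML3 sites.

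When the listed range was divided into 4120 tiles of 700 kb, 5 tiles (0.121%) held 22 or more MAML3 sites, and the median tile held 1. SLIT3 was chosen with its peaks known, so this share is a description and not a test. The SLIT3 sites were not evenly spread. A block of 16 sites lay in 234 kb at chr5:168196999-168431199. The next 138 kb were empty, followed by a block of 5 sites in 77.0 kb at chr5:168569300-168646299. The last site, at chr5:168763349-168763648, was held by RA 1 alone. SLIT3 is read on the minus strand, so the lower coordinates lie toward its 3' end, and 15 of the 22 sites were in the lower part of the window when it was divided at its midpoint.

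The highest ranked SLIT3 sites were in every MAML3 list. At chr5:168196999-168197598 the percentile was 98.3 and 98.0 in the RA lists and 96.4 and 99.1 in the UT lists. Its neighbour 1.85 kb away, at chr5:168199449-168199998, had percentiles of 98.0 and 96.8 in the RA lists and 94.8 and 97.9 in the UT lists. The third, at chr5:168576949-168577499, had 85.8 and 87.5 in the RA lists and 86.5 and 95.8 in the UT lists. These places were near the top of each list whichever treatment the cells had received. Further sites in all 4 lists with RARα on them were chr5:168240499-168241048, with 89.3 and 87.9 in the RA lists and 62.7 and 93.1 in the UT lists, and chr5:168603999-168604548, with 92.3 and 77.9 in the RA lists and 77.5 and 88.2 in the UT lists. The site at chr5:168271799-168272348 was in both RA lists (86.8 and 73.5) and UT 2 (74.4). Of the 12 sites in all 4 lists, 7 carried no RARα peak. The highest of these by mean percentile was chr5:168344899-168345448, with 76.6 and 85.2 in the RA lists and 38.6 and 89.0 in the UT lists. At the low end, the site at chr5:168343549-168343748 had percentile 6.10 and was listed by RA 1 alone.

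All 6 RARα sites of the SLIT3 window lay on MAML3 sites. The RARα lists held 5 and 5 peaks there in RA cells and 5 and 0 in UT cells. The library with none, UT 2, is the list of 251 peaks. Sites in RA 1, RA 2 and UT 1 were at chr5:168197095-168197498, chr5:168199495-168199944, chr5:168271895-168272252 and chr5:168577149-168577494. The first had percentiles of 77.0 and 76.5 in the RA lists and 91.1 in UT 1. For the second they were 90.8 and 65.8 in the RA lists and 52.8 in UT 1. The third had 54.9 and 53.3 in the RA lists and 24.4 in UT 1, and the fourth had 4.40 and 1.22 in the RA lists and 58.7 in UT 1. The order of the treatments thus differed from site to site. Of the other sites, chr5:168240611-168240948 was in RA 1 and UT 1, and chr5:168604175-168604459 in RA 2 alone (percentile 71.6).

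SLIT2, the other ligand gene, was nearly empty. Its window of 470 kb held 2 and 1 MAML3 peaks in the RA lists and 0 and 0 in the UT lists. The RA libraries were thus the only ones with a peak. A site at chr4:20464062-20464549 was in both RA lists, at percentiles 89.5 and 70.4, and in neither UT list. It also carried the window's only RARα peak, at chr4:20464052-20464181 in RA 2 (percentile 26.9). Another site, at chr4:20492762-20493061, was listed by RA 1 alone at percentile 47.8. With 0.426 MAML3 sites per 100 kb, SLIT2 was close to the 0.354 of the listed range, and 35.9% of 6140 tiles of this length held as many sites.

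**Figure D2:**
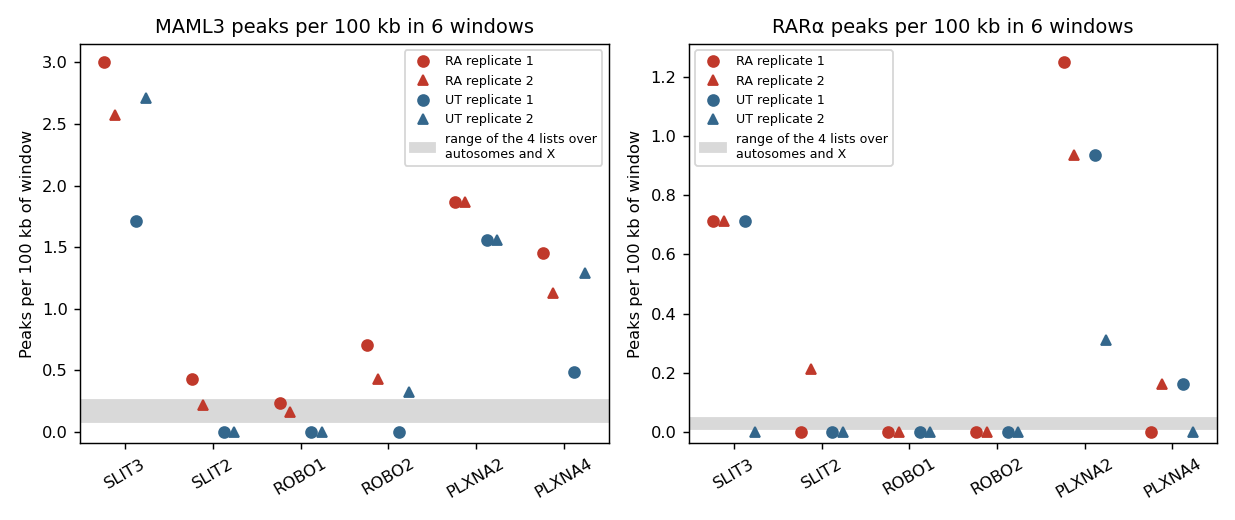
Peaks per 100 kb in each window for MAML3 (left) and RARα (right), 1 point per library, RA left of UT, with circles for replicate 1 and triangles for replicate 2. The grey band is the range of the 4 lists of that antibody over the autosomes and X, and SLIT3, PLXNA2 and PLXNA4 lie above it in all 4 MAML3 lists.

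The receptor genes for SLIT proteins held no RARα peak, and fewer MAML3 sites per 100 kb than SLIT3 and both plexin genes. ROBO1, with a window of 1270 kb, held 3 and 2 MAML3 peaks in the RA lists and 0 and 0 in the UT lists. Its 3 sites had RA percentiles between 7.92 and 49.9. The median over these sites was 29.7, beside 38.1 for all MAML3 sites of the autosomes and X. At chr3:78659540-78659855 the RA percentiles were 7.92 and 10.7, and at chr3:79589540-79589889 they were 29.2 and 49.9. The last, chr3:79857756-79858055, was in RA 1 alone at 29.7. The density of 0.236 MAML3 sites per 100 kb was below the 0.354 of the listed range, and 56.6% of 2267 tiles of this length held 3 or more sites.

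ROBO2, the largest of the 6 windows with 1850 kb, held 13 and 8 MAML3 peaks in the RA lists and 0 and 6 in the UT lists. Both RA libraries were above both UT libraries, by 2 peaks at the nearest pair. The share of other stretches of this length with that order was not determined. The means were 10.5 ± 3.54 in RA cells and 3.00 ± 4.24 in UT cells (SD, n = 2 each). Its 15 sites stretched over 1520 kb with a median gap of 81.4 kb, against 15.4 kb in SLIT3, and none was in all 4 lists. The density of 0.811 MAML3 sites per 100 kb was above the 0.354 of the listed range, and 170 of 1551 tiles of this length held 15 or more sites, with a median of 5. Their median percentile, averaged over the lists that held each site, was 29.2, beside 62.1 for SLIT3 and 38.1 for all MAML3 sites of the autosomes and X. In the RA lists the median ROBO2 peak stood at percentile 32.5 and 28.7, and in UT 2 at 50.3.

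The ROBO2 window had 3 sites in both RA lists and in UT 2. At chr3:77426806-77427305 the percentiles were 80.4 and 58.8 in the RA lists and 75.2 in UT 2. At chr3:76732256-76732839 they were 72.8 and 77.1 in the RA lists and 46.4 in UT 2, and at chr3:76201256-76201605 they were 53.0 and 32.4 in the RA lists and 14.4 in UT 2. The sites in both RA lists and no UT list were at chr3:76188090-76188439 (26.9 and 11.7), chr3:77115156-77115639 (33.3 and 25.0), chr3:77175106-77175455 (24.2 and 14.5) and chr3:77590390-77590805 (43.9 and 33.9). All of these RA percentiles were under 50. The only site seen in UT cells alone, chr3:77220257-77220525, was in UT 2 at percentile 54.1.

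Neither ROBO window held a RARα peak in any of the 4 RARα lists. Windows of this length are often without one: 54.2% of 2267 tiles of 1270 kb and 41.2% of 1551 tiles of 1850 kb had no RARα site. Together the ROBO windows held 16 and 10 MAML3 peaks in the RA lists and 0 and 6 in the UT lists, over 3120 kb.

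The semaphorin receptor gene PLXNA2 had the highest RARα density. Its window of 320 kb held 4 and 3 RARα peaks in the RA lists and 3 and 1 in the UT lists, or 1.25 and 0.937 per 100 kb in RA cells and 0.937 and 0.312 in UT cells. UT 2 was the lowest, and its single peak here came from a list of 251. MAML3 had 6 and 6 peaks in the RA lists and 5 and 5 in the UT lists. The RA libraries exceeded the UT libraries by 1 peak each, and in UT 1 a pair of its 5 peaks fell in the same merged site. Of 7 MAML3 sites, 4 were in all 4 lists (57.1%, beside 16.8% of all MAML3 sites), and 6 lay in a block of 83.2 kb at chr1:208180900-208264049.

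The PLXNA2 site ranked highest in both RA lists was chr1:208180900-208181699, with MAML3 percentiles of 98.6 and 98.7 in the RA lists and 52.9 and 93.7 in the UT lists. RARα at that place had percentiles of 89.7 and 72.3 in the RA lists and 5.11 in UT 1, and no peak in UT 2. For both antibodies the RA lists ranked the site higher than the UT lists did. Percentiles of lists of different length show no change in binding by themselves. The site with the highest mean over the 4 MAML3 lists was another, chr1:208232900-208233399 (87.7, against 86.0). Its MAML3 percentiles were 93.8 and 88.8 in the RA lists and 75.0 and 93.0 in the UT lists. RARα there had 80.0 and 23.8 in the RA lists and 63.4 in UT 1.

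The place in the 6 windows that carried a peak in all 8 lists was in PLXNA2, at chr1:208256750-208257199. Its MAML3 percentiles were 82.8 and 80.8 in the RA lists and 5.94 and 71.2 in the UT lists. The RARα percentiles were 60.2 and 45.9 in the RA lists and 39.4 and 1.59 in the UT lists. PLXNA2 also had the only RARα site of the 6 windows with no MAML3 peak in any list, a peak of 50 bp at chr1:208260345-208260394 in RA 1, at percentile 7.12. A MAML3 site at chr1:208186400-208186849 was in both RA lists (71.9 and 61.6) and no UT list, 4.70 kb from the site ranked highest in the RA lists.

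PLXNA4 had 10 MAML3 sites and 1 RARα site. Its window of 620 kb held 9 and 7 MAML3 peaks in the RA lists and 3 and 8 in the UT lists. UT 2 lay between the RA libraries, and the short list UT 1 was the lowest. All 10 sites lay in the upper part of the window when it was divided at its midpoint, and 9 of them in a block of 112 kb at chr7:132072396-132184650. PLXNA4 is read on the minus strand, so this part lies toward the start of the gene. The RARα lists held 0 and 1 peaks in RA cells and 1 and 0 in UT cells. All lay at chr7:132104397-132104680, at percentiles 32.2 in RA 2 and 41.6 in UT 1. Of 4649 tiles of 620 kb, 72.5% had no RARα site, so 1 site is not few for this length.

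Sites in all 4 MAML3 lists led the PLXNA4 window too. At chr7:132072396-132072895 the percentiles were 94.1 and 85.5 in the RA lists and 74.8 and 95.3 in the UT lists, and at chr7:132161296-132161745 they were 95.1 and 91.3 in the RA lists and 69.0 and 84.7 in the UT lists. The third was chr7:132120950-132121300, with 74.4 and 36.3 in the RA lists and 60.4 and 74.1 in the UT lists. None of these 3 carried a RARα peak in any list. A site in both RA lists and no UT list, chr7:132277201-132277945, stood 92.6 kb from its neighbour, at percentiles 74.8 and 79.7.

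The comparison of treatments asked which sites appeared or disappeared with RA. Sites present in both RA lists and in neither UT list were called gained, and sites present in both UT lists and in neither RA list were called lost. Of the 59 MAML3 sites in the windows, 9 were gained (15.3%) and 0 were lost, beside 9.37% gained and 0.683% lost among all 10251 MAML3 sites. The gained sites were 4 in ROBO2, 2 in ROBO1 and 1 each in SLIT2, PLXNA2 and PLXNA4, with 0 in SLIT3. No test was made, since the genes were chosen from the same lists. Leaving out a list loosens both rules, so the counts can only hold or rise. The gained count was 20 without RA 2 and 21 without UT 2. Without UT 1, 3 sites were lost, 1 each in SLIT3, ROBO2 and PLXNA4. The shares of all MAML3 sites under these looser rules were not determined, so nothing particular to the windows is read from them.

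**Figure D3:**
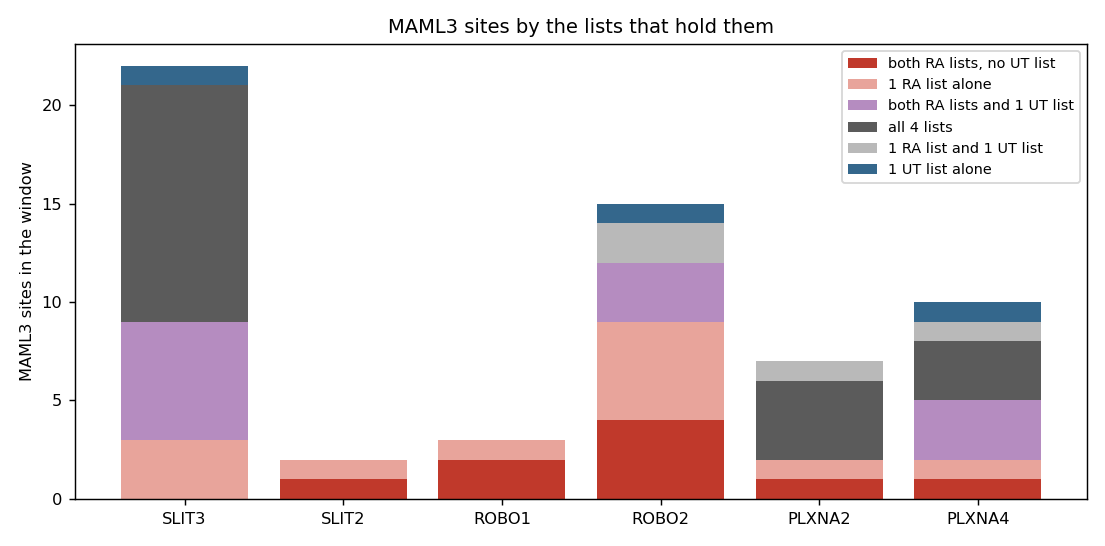
MAML3 sites per window on the y axis, stacked by which lists hold them, for the 6 genes on the x axis. Sites in all 4 lists make up 12 of 22 in SLIT3, 4 of 7 in PLXNA2 and 3 of 10 in PLXNA4, and 0 in SLIT2, ROBO1 and ROBO2.

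The edges of the windows decided whether MAML3 peaks of UT cells were counted for SLIT2. With 100 kb added on each side, the SLIT2 window held 3 and 2 peaks in the RA lists and 2 and 1 in the UT lists. The added peaks formed 1 site, chr4:20712850-20713499, which lay 42.9 kb outside the window and was in all 4 lists, at percentiles 89.0 and 82.3 in the RA lists and 21.4 and 95.1 in the UT lists. The absence of SLIT2 peaks from the UT lists thus holds within the window alone. Which gene the added site belongs to was not tested. The widened ROBO1 window held 4 and 3 peaks in the RA lists and still 0 and 0 in the UT lists. Widened in the same way, the windows held 23 MAML3 sites for SLIT3, 3 for SLIT2, 4 for ROBO1, 15 for ROBO2, 7 for PLXNA2 and 12 for PLXNA4, and 10 gained sites in all, the added gained site being at ROBO1.

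Sites in at least 1 RA list and no UT list were also counted, and by definition they include the gained sites. They were 2 of 2 in SLIT2, 3 of 3 in ROBO1 and 9 of 15 in ROBO2. In SLIT3 they were 3 of 22, in PLXNA2 2 of 7 and in PLXNA4 2 of 10. Over the 6 windows the share was 35.6%, beside 33.2% of all MAML3 sites, so the windows as a whole were close to the other sites in this respect.

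Of the 12 RARα sites in the windows, 0 were gained and 0 lost, beside 5.42% gained and 0.472% lost among all 2120 RARα sites. In all 4 RARα lists there was 1 site (8.33%, beside 6.75% of all RARα sites), and in RA lists alone there were 3 (25.0%, beside 35.7%). A RARα site can be lost only where UT 2, with its 251 peaks, holds it, and 1 site in the windows met that. Without UT 1, 6 RARα sites counted as gained, without RA 1 there were 2, and without RA 2 there was 1. Without UT 2 the counts were 0 and 0. These rules are looser by 1 list, and the shares of all RARα sites under them were not determined.

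Lists of equal length gave a different order for SLIT3 and PLXNA2. Each MAML3 list was shortened to its 2222 highest scores, the length of UT 1. The 6 windows then held 22 and 16 MAML3 peaks in the RA lists and 20 and 22 in the UT lists, so the treatments overlapped. Within lane 3 this was 22 in RA 1 and 22 in UT 2, and within lane 7 it was 16 in RA 2 and 20 in UT 1. SLIT3 had 10 and 7 peaks in the RA lists and 12 and 14 in the UT lists. Both RA libraries were thus below both UT libraries, where the full lists had UT 2 between the RA libraries. PLXNA2 had 4 and 3 peaks in the RA lists and 5 and 4 in the UT lists. Neither RA library was above a UT library there, where each had been 1 peak higher in the full lists. How often other stretches of these lengths show such orders, at either list length, was not determined. The UT lists may also be the same library.

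At that length 4 of 15 SLIT3 sites counted as lost and 0 as gained. The lost sites lay at chr5:168215050-168215449, chr5:168256099-168256399, chr5:168411300-168411648 and chr5:168645899-168646299. All 4 were in both RA lists at full length, at percentiles between 6.13 and 62.1, so they were lower in rank there and not absent. In PLXNA2 1 of 5 sites counted as lost, chr1:208231596-208231995, which the full RA lists held at 39.4 and 24.9. Over all 3619 MAML3 sites at equal length, 4.78% were lost and 7.99% gained.

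The ROBO windows nearly emptied at equal length, with 0 peaks in ROBO1 in all 4 lists. ROBO2 kept 2 and 1 peaks in the RA lists and 0 and 1 in the UT lists. The gained sites that this setting held were 3: chr4:20464062-20464549 in SLIT2, chr3:76732256-76732839 in ROBO2 and chr7:132277201-132277945 in PLXNA4. These genes had 1, 2 and 6 MAML3 sites at this length. The SLIT2 and PLXNA4 sites were also gained at full length. The ROBO2 site was not, since UT 2 held it lower in its list. Neither of the 2 gained ROBO1 sites was among the 2222 highest peaks of either RA list. PLXNA4 had 5 and 4 peaks in the RA lists and 3 and 3 in the UT lists.

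**Figure D4:**
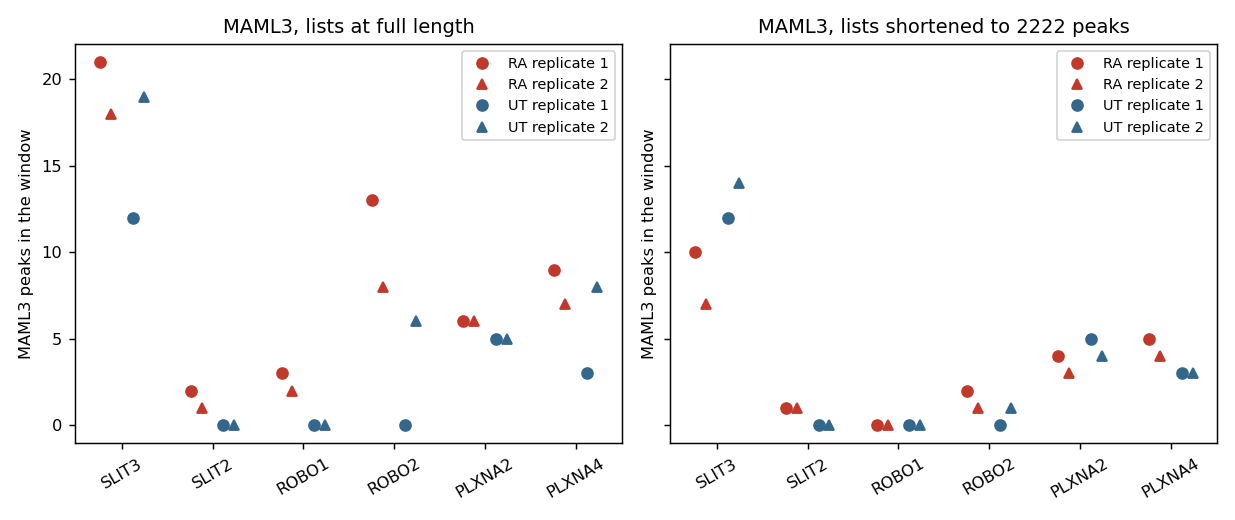
MAML3 peaks in each window on the y axis, in the full lists (left) and with every list shortened to 2222 peaks (right), 1 point per library, RA left of UT. In SLIT3 the RA points (10 and 7) lie below the UT points (12 and 14) at equal length, and ROBO1 has 0 in all 4 lists.

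The last comparison asked whether the receptor and the coactivator met at the same places. Within RA cells, 7 of 7 RARα sites held by both replicates in the windows overlapped a MAML3 site held by both replicates (100%, 95% Wilson interval 64.6 to 100, for counting error only), beside 81.7% of 556 such sites in all. In UT cells the count was 1 of 1, beside 56.1% of 187. When a single replicate sufficed, 11 of 12 sites in RA cells (91.7%) and 9 of 9 in UT cells overlapped, beside 81.8% and 83.4% of all such sites. Regardless of treatment, 11 of the 12 RARα sites (91.7%) carried a MAML3 peak of any list, beside 84.4% of all RARα sites. With so few sites, a difference from the other sites was not detectable.

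Seen from MAML3, genes differed in how much RARα they carried. A RARα peak of any list lay on 6 of 22 MAML3 sites in SLIT3, 3 of 7 in PLXNA2, 1 of 2 in SLIT2 and 1 of 10 in PLXNA4. In ROBO1 and ROBO2 the counts were 0 of 3 and 0 of 15. Together this was 11 of 59 (18.6%), beside 17.0% of all MAML3 sites, so the 6 windows as a group were near the share of all sites. Among the 9 gained MAML3 sites, 1 carried a RARα peak, the SLIT2 site, in RA 2. The other 10 MAML3 sites with RARα were held by at least 3 MAML3 lists, UT 2 among them. With 9 gained sites, no difference from the 17.0% of all MAML3 sites can be read. The share with RARα among all gained sites was not determined.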

How the data were processed

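The labels name 10 samples of SK-N-SH cells: 8 immunoprecipitates, analysed here from 1 peak list each, and 2 inputs, not analysed here. Per the submitters' processing notes, hg19 was the build and the tools included BWA 0.5.9, MACS and bedtools, with no role given. Each list gives a position, a peak name and 1 score per peak, which the authors deposited with no header. The minimum score is about 70 in every list. Scores served only to rank peaks within a list (percentile of rank, the highest where a site held more than 1 peak). No source used here states the read depth, the calling threshold or the filtering mentioned in the list names; depth therefore gives no measure of precision.

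Peak starts were converted to count from 1. A peak belonged to a window when it overlapped it. Overlapping peaks (at least 1 bp) of an antibody's 4 lists formed a site, and for the overlap of the antibodies the 2 lists of a treatment were merged. Merging and calling were tested on simulated lists. Shares have 95% Wilson intervals for counting error. Tiles were adjoining stretches of a window's length along each chromosome's listed range, with sites placed by midpoint. Alternatives were equal list lengths, the top 50% of peaks by score, windows widened by 100 kb, overlap of 50% of the shorter peak, joining of peaks up to 1 kb apart, sites that a single replicate holds, and leaving out each replicate. Values within the lanes named in the list names were added after the data were seen.

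The 6 genes, their windows and the lists were chosen with earlier results of these data known. The sites named are all gained or lost sites, RARα sites in at least 3 lists and the 3 highest ranked MAML3 sites in all 4 lists of each window; further sites were named after their values were seen. Other axon guidance genes were not analysed here, since the annotation at hand (RefSeq, GRCh38.p14) is on another build; it gave gene names, strands, neighbours and sequences, and all 6 genes matched. Python 3.11.15 was used with numpy 2.4.6, pandas 2.3.3, scipy 1.17.1 and matplotlib 3.10.9.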

Additional observations from a re-analysis of the deposited data

How the results depend on the processing

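No paired analysis was possible because the results come from counts with no test; the values within lanes stand beside the pooled ones. With each list shortened to its top 50% of peaks by score, the mean number of peaks in the windows was 25.5 for MAML3 in RA cells and 5.5 for RARα in RA cells, and 2 RARα sites were gained; fewer peaks enter by construction. At equal length the means were 19 for MAML3 and 2 for RARα in RA cells, with 3 MAML3 sites gained and 5 lost. Leaving out 1 library at a time gave 9 to 21 gained and 0 to 3 lost MAML3 sites, and 0 to 6 gained and 0 lost RARα sites. By construction these counts can only hold or rise when a list is left out. The means ranged from 42 to 54 (MAML3 RA), 20 to 38 (MAML3 UT), 9 to 10 (RARα RA) and 1 to 9 (RARα UT), and the share of RARα sites on MAML3 from 88.9 to 100% in RA cells and 77.8 to 100% in UT cells. Widening the windows, a stricter or a looser overlap and sites in at least 1 replicate left the gained and lost counts, where they apply, within 1.5 times of those reported. The share could not be computed at equal length, nor for UT cells in the top 50% of peaks, since no RARα site in the windows was then held by both replicates. Of the 24 densities per gene, antibody and treatment, 9 moved by more than the spread between replicates in the top 50% of peaks, 9 at equal length and 7 in the widened windows. Widening lowers a density by construction where no peak is added. MAML3 at PLXNA2 moved in this way, with peaks still 6 and 6 in the RA lists and 5 and 5 in the UT lists. Unknown read depth, a UT list of 251 peaks and an unstated relation between the MAML3 UT lists limit every comparison of treatments.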
